A study of Mus musculus with 12 samples.

Results

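The genes described are 10 immune genes of the brain: the C1q chains C1qa, C1qb and C1qc, the signalling adaptors Tyrobp and Fcer1g, the receptors Trem2 and Fcgr3, and Ly86, Cd53 and Aif1. They were picked by symbol out of 55401 gene IDs in the deposited count table, and all 10 were found. All 10 also passed the filter on low counts, which kept 12613 genes. The filter can be passed through one class of libraries alone. It was reached in 3 or more CD51+ libraries by 8 of the 10 genes and in 3 or more CD51- libraries by all 10. Genes of the marker and pathway lists below can likewise pass through CD51- libraries alone. Such genes can hardly come out higher in CD51+, so the medians of those lists are partly set by the filter.

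RNA was measured in GFP-positive cells sorted by flow cytometry, as astrocytes, from the cortex and hippocampus of mice carrying CD51-Flp and Rosa-CAG-FSF-tdTomato. CD51 is integrin alpha-v, and the Flp recombinase switches on tdTomato. The 4 groups, with 3 libraries each, were cortex CD51+ and hippocampus CD51+ (tdTomato+ and GFP+) and cortex CD51- and hippocampus CD51- (tdTomato- and GFP+). All groups carry the same reporter alleles. The driver of GFP and the number, age and sex of the mice were not given in the sources used here. No label says that replicates came from separate animals, so p-values measure only the spread between these samples, which may be technical. Library names contain G for the title class CD51+ and GT for CD51-, and may therefore stand for the reverse classes. If so, every CD51 difference below would change sign.

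Total counts were 4351897 to 12847183 per library. Mitochondrial genes took 36.5% to 71.1% of the counts in the 6 CD51+ libraries and 20.2% to 38.6% in the 6 CD51- libraries, and mitochondrial ribosomal RNA alone took 58.4% in cortex CD51+ replicate 3. The astrocyte label was checked with 15 astrocyte markers: their summed level was 43269 to 69342 CPM (counts scaled to a library size of 1e6, after TMM scaling) in CD51+ libraries and 4090 to 15234 CPM in CD51- libraries. Of the 15 markers, 12 were higher in CD51+ cortex and 8 in CD51+ hippocampus at an edgeR adjusted p under 0.05, and none was lower. Of all tested genes, 5.05% were called higher in cortex and 0.618% in hippocampus. None of the 15 had a negative log2 fold change in either region. The summed level of 10 oligodendrocyte markers was 1141 to 4877 CPM in CD51+ libraries and 6840 to 63638 CPM in CD51- libraries. Of these 10 markers, 4 were called lower in CD51+ cortex and 2 in CD51+ hippocampus, and none higher. Of all tested genes, 6.27% and 2.7% were called lower. The log2 fold change was negative for 9 of the 10 markers in cortex and 7 in hippocampus. Itgav, the gene of CD51, had a log2 difference of 0.91 ± 0.55 (SE; adjusted p = 0.269, edgeR) in cortex and of -0.04 ± 0.55 (SE; adjusted p = 0.984, edgeR) in hippocampus.

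C1q starts the classical complement cascade: the products of C1qa, C1qb and C1qc assemble into one molecule that binds antibody complexes, dying cells and, in the developing brain, synapses. Tyrobp (DAP12) and Fcer1g (the Fc receptor gamma chain) are membrane adaptors whose ITAM motifs, once phosphorylated, recruit the kinase Syk. Trem2 signals through Tyrobp, and Fcgr3, a low-affinity receptor for immunoglobulin G, signals through Fcer1g. In the healthy brain parenchyma these genes are known as genes of microglia, the resident macrophages. Because the libraries are bulk RNA, fewer cells of a type and less RNA per cell cannot be told apart.

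The 10 genes lie on 6 chromosomes of mm10, with 2 tight groups. The C1q genes sit side by side on the minus strand of chromosome 4, within 18.7 kb: C1qb (ENSMUSG00000036905.8, chr4:136880129-136886187), C1qc (ENSMUSG00000036896.5, chr4:136889804-136893065) and C1qa (ENSMUSG00000036887.5, chr4:136895917-136898803). On chromosome 1, Fcgr3 (ENSMUSG00000059498.13, chr1:171051174-171064935) and Fcer1g (ENSMUSG00000058715.11, chr1:171229572-171234365) lie within 183 kb, both on the minus strand. Tyrobp (ENSMUSG00000030579.10) is at chr7:30413760-30417585 on the plus strand. Aif1 (ENSMUSG00000024397.14, chr17:35170991-35176068, minus strand) and Trem2 (ENSMUSG00000023992.14, chr17:48346401-48354147, plus strand) share chromosome 17 but lie far apart. Ly86 (ENSMUSG00000021423.6) is at chr13:37345208-37419036 on the plus strand and Cd53 (ENSMUSG00000040747.9) at chr3:106759921-106790149 on the minus strand. Counting ignored strand, but no exon of another annotated gene overlaps an exon of any of the 10.

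Promoter sequence is shown as a description of the genes, and its part in their levels was not tested. The RefSeq promoter table (GRCm38.p6) held 8 of the 10 genes, all but C1qa and Tyrobp, in 9 windows, since Fcgr3 has 2 start sites whose windows overlap. RefSeq starts can differ from the ends of the genes as counted. Both Fcgr3 windows lie inside the Fcgr3 gene as counted. Those of C1qc, Ly86, Fcer1g and Aif1 overlap the 5′ ends of their genes. The 250 bases before each RefSeq start were searched on both strands for GAGGAA, a purine-rich core of the kind bound by the myeloid factor PU.1. It was found in 7 of the 9 windows, those of 6 genes (C1qb, C1qc, Trem2, Fcgr3, Aif1 and Cd53), and not in Fcer1g or Ly86. The matches in the 2 Fcgr3 windows are the same site, 6 and 15 bases before the 2 starts. Of all 32817 such windows in the table, 23.3% hold it. TATAAA was found in 0 of the 9 windows, against 12.4% of all windows. The 2 motifs share no match. These are matches of letters only. For the neighbouring C1qb and C1qc, for Trem2 and for Cd53 the windows read as follows, 5′ to 3′ on the gene's own strand, with the match (GAGGAA, or TTCCTC where it lies on the other strand) in capitals.
C1qb (chr4:136886201-136886450, minus strand): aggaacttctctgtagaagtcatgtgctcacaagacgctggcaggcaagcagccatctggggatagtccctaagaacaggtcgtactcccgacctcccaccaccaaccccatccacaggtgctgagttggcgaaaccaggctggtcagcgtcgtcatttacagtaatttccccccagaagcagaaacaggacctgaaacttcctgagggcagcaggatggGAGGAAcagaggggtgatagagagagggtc
C1qc (chr4:136892915-136893164, minus strand): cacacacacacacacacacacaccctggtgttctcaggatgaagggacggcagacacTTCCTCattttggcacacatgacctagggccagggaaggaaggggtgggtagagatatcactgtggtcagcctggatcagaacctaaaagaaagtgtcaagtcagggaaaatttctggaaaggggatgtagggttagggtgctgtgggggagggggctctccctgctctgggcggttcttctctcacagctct
Trem2 (chr17:48346151-48346400, plus strand): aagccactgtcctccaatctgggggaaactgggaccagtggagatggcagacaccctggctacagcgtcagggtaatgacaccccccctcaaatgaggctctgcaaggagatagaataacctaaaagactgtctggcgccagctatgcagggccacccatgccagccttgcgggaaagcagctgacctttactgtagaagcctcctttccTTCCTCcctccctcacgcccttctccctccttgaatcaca
Cd53 (chr3:106790150-106790399, minus strand): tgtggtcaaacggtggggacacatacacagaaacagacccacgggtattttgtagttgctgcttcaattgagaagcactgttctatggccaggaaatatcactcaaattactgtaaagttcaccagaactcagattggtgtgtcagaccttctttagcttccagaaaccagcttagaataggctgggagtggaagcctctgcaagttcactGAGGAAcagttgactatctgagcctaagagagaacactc
In C1qb the match begins 30 bases before the RefSeq start of transcription, in Cd53 39, in Trem2 40 and in C1qc 193.

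The first comparison asked how the CD51+ libraries of a region differ from its CD51- libraries. The C1q, Tyrobp and Fc receptor genes had 81 to 2440 reads in all in CD51+ libraries and 14634 to 29819 in CD51- libraries. In cortex 5 of the 10 (Tyrobp, Ly86, C1qb, Fcgr3 and Fcer1g) were lower in CD51+ at an edgeR adjusted p under 0.05, where 6.27% of all tested genes were called lower and 5.05% higher. In hippocampus 4 of the 10 (Tyrobp, Fcgr3, Ly86 and C1qb) were lower, where 2.7% of all tested genes were called lower and 0.618% higher. None of the 10 was higher in either region. The cortex count was 3 without cortex CD51+ replicate 3 and 8 without any one hippocampus CD51+ library, all of which enter the shared fit. The hippocampus count was 1 without hippocampus CD51+ replicate 1 or replicate 2, 2 without hippocampus CD51- replicate 2 and 6 without hippocampus CD51+ replicate 3. The median log2 fold change of the 10 was -4.05 in cortex and -3.70 in hippocampus, beside medians over all tested genes of -0.03 and -0.22. All 3 CD51+ libraries were below all 3 CD51- libraries for 10 of 10 genes in cortex and 9 of 10 in hippocampus, all but Fcer1g. For Aif1 in cortex this rests on 0 reads in CD51+ libraries against 1 read in CD51- replicate 3. A count of 0 allows up to 3 reads, so Aif1 is not shown to be separate there. Over all tested genes 16.6% were below without overlap in cortex and 16.7% in hippocampus.

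**Figure D1:**
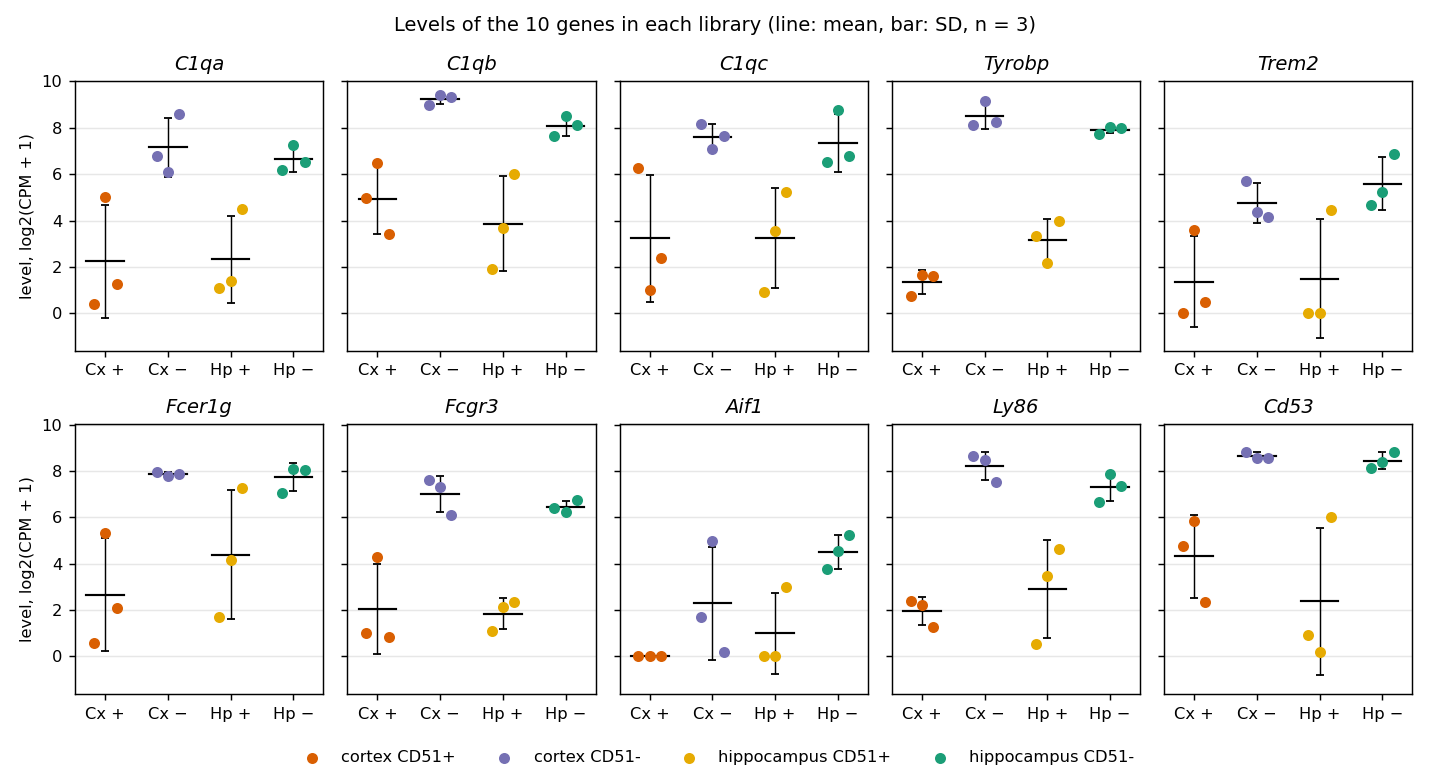
Level of each of the 10 genes in every library, as log2(CPM + 1) on the vertical axis, in cortex (Cx) and hippocampus (Hp) libraries labelled CD51+ (+) and CD51- (-). Points are libraries, lines are means and bars are SDs of 3 libraries. The CD51+ points lie below the CD51- points of the same region everywhere but in Fcer1g in hippocampus. For Aif1 in cortex the lowest CD51- point is 1 read, beside 0 reads in CD51+. Their SD is the larger one for 7 genes in cortex and for 10 in hippocampus.

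Among the C1q chains, C1qb had the most reads in 10 of the 12 libraries, and C1qc in cortex CD51+ replicate 1 and hippocampus CD51- replicate 2. Per kilobase of exon, C1qb was above C1qc in hippocampus CD51- replicate 2 (332 and 223 CPM per kilobase). C1qb was at 30.1, 87.2 and 9.74 CPM in the cortex CD51+ libraries and at 500, 683 and 649 CPM in the cortex CD51- libraries. This was a log2 difference of -3.85 ± 0.92 (SE; adjusted p = 0.00922, edgeR). Fold changes are given as log2 of CD51+ over CD51-. In hippocampus C1qb was at 2.75, 11.9 and 63.0 CPM in CD51+ and at 199, 361 and 274 CPM in CD51-. The groups did not overlap, and the log2 fold change was -3.42 ± 0.91 (SE; adjusted p = 0.0360, edgeR). That hippocampal call was lost without hippocampus CD51+ replicate 1 (edgeR adjusted p = 0.112) or replicate 2 (0.155) and without hippocampus CD51- replicate 2 (0.0799).

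C1qa, the A chain, was at 0.336, 31.2 and 1.42 CPM in cortex CD51+ libraries and at 109, 67.5 and 382 CPM in cortex CD51- libraries. One CD51+ library, replicate 2, stood far above the other 2 of its group. The log2 fold change of -4.08 ± 1.35 (SE) missed the threshold, with an edgeR adjusted p of 0.0512, and was -7.72 (adjusted p = 0.00332) without that replicate. In hippocampus C1qa was at 1.15, 1.61 and 21.4 CPM in CD51+ and at 71.1, 150 and 92.2 CPM in CD51-, a log2 difference of -3.69 ± 1.32 (SE; adjusted p = 0.128, edgeR). Here the high CD51+ library was replicate 3, and without it the value was -6.23 (adjusted p = 0.0348).

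C1qc, the C chain, was at 76.4, 1.03 and 4.26 CPM in cortex CD51+ libraries and at 282, 134 and 198 CPM in cortex CD51- libraries. Its high CD51+ library was replicate 1, not the one of C1qa. On the log2 scale the difference was -2.91 ± 1.21 (SE; adjusted p = 0.101, edgeR), and -6.29 without that replicate (adjusted p = 0.00507). In hippocampus C1qc was at 0.918, 10.9 and 36.2 CPM in CD51+ and at 89.6, 432 and 108 CPM in CD51-, a log2 difference of -3.71 ± 1.25 (SE; adjusted p = 0.109, edgeR).

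Since the chains are used together in one protein, their shares of the C1q reads were compared between libraries, with 95% Clopper-Pearson intervals that cover counting error only. In cortex CD51+ replicate 1, C1qc held 71.5% (67.9% to 75.0%) of 636 C1q reads and C1qa 0.314% (0.0381% to 1.13%). In cortex CD51+ replicate 2, C1qc held 0.859% (0.372% to 1.69%) of 931 reads and C1qb 73.0% (70.1% to 75.9%). These 2 libraries of one group had different leading chains. Across the 6 CD51+ libraries the share of C1qc ran from 0.859% to 71.5%, and across the 6 CD51- libraries from 15.2% to 45.8%. The share of C1qa ran from 0.314% to 26.1% in CD51+ and from 7.63% to 31.1% in CD51-. C1qb ran from 28.1% to 73.0% in CD51+ and from 38.3% to 77.2% in CD51-. The median share of C1qb was 54.7% in CD51+ and 55.7% in CD51-, that of C1qc 28.8% in CD51+ and 23.8% in CD51-, and that of C1qa 13.5% in CD51+ and 17.7% in CD51-.

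**Figure D2:**
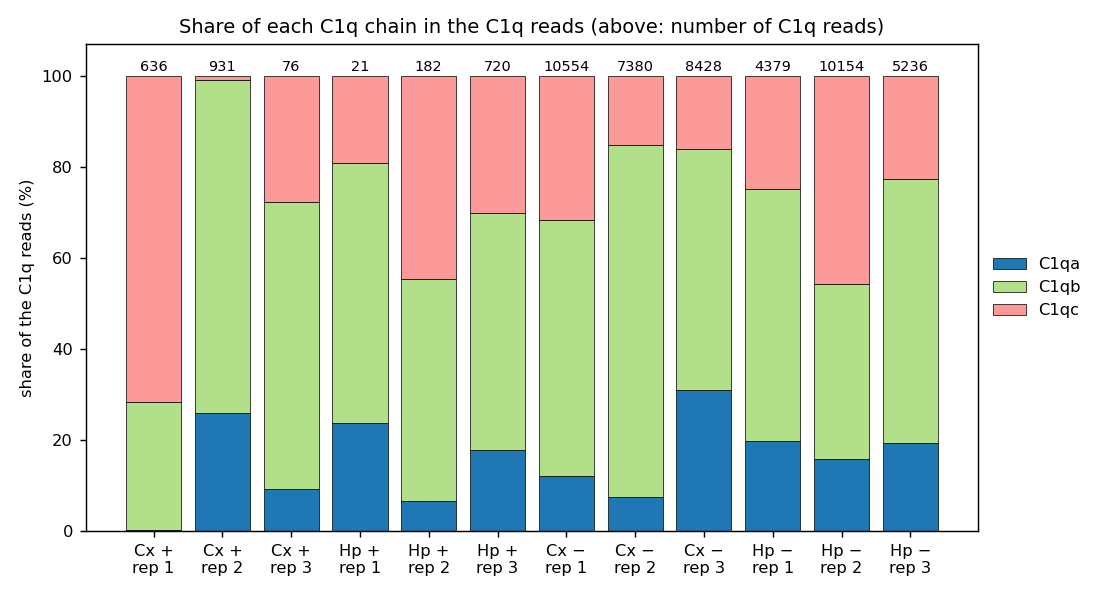
Share of each C1q chain in the C1q reads of each library (vertical axis, %), with the number of C1q reads above each bar, for cortex (Cx) and hippocampus (Hp) libraries, CD51+ on the left and CD51- on the right. The CD51+ libraries held 21 to 931 C1q reads, and the CD51- libraries 4379 to 10554. The first 2 bars show the different leading chains.

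Of the adaptors, Tyrobp showed the clearest separation. It was at 0.672, 2.18 and 2.03 CPM in cortex CD51+ libraries and at 279, 570 and 307 CPM in cortex CD51- libraries. Every cortex CD51+ library had between 4 and 17 Tyrobp reads, where the cortex CD51- libraries had 2105 to 4760. On the log2 scale CD51+ over CD51- was -7.87 ± 0.92 (SE; adjusted p = 1.98e-05, edgeR). In hippocampus Tyrobp was at 8.95, 3.49 and 14.6 CPM in CD51+ and at 214, 259 and 253 CPM in CD51-. The groups were again far apart, with a log2 difference of -4.75 ± 0.80 (SE; adjusted p = 0.00105, edgeR). Tyrobp was called in both regions under all 22 alternatives tried.

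Fcer1g, the adaptor of the activating Fc receptors, was at 0.504, 39.2 and 3.25 CPM in cortex CD51+ libraries and at 250, 221 and 232 CPM in cortex CD51- libraries. The CD51- libraries were within a narrow band, while the CD51+ libraries spread widely with replicate 2 highest. The fitted log2 difference was -4.02 ± 1.25 (SE; adjusted p = 0.0404, edgeR). The call was lost without cortex CD51+ replicate 1 (edgeR adjusted p = 0.0833) or replicate 3 (0.117) and in a robust fit (0.0556), and the value was -6.97 without replicate 2. In hippocampus Fcer1g was at 2.29, 16.8 and 154 CPM in CD51+ and at 131, 274 and 262 CPM in CD51-. Hippocampus CD51+ replicate 3 lay above the lowest CD51- library, so the groups overlapped. This was a log2 difference of -1.94 ± 1.15 (SE; adjusted p = 0.394, edgeR), and -4.52 without that replicate (adjusted p = 0.0773).

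The adaptors did not keep one ratio to each other in CD51+ libraries. Per 100 Tyrobp reads there were 25.6 to 1800.0 Fcer1g reads in the 6 CD51+ libraries, with a median of 320.4, and 38.7 to 105.5 in the 6 CD51- libraries, with a median of 82.5. The highest ratio came from 306 Fcer1g reads beside 17 Tyrobp reads in cortex CD51+ replicate 2. Hippocampus CD51+ replicate 3 had 919 Fcer1g reads beside 87 Tyrobp reads. Hippocampus CD51+ replicate 1 went the other way, with 10 Fcer1g and 39 Tyrobp reads.

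Of the receptors, Fcgr3 was at 1.01, 18.3 and 0.812 CPM in cortex CD51+ libraries and at 192, 155 and 68.4 CPM in cortex CD51- libraries. The groups did not overlap, and replicate 2 was again the highest CD51+ library. On the log2 scale the difference was -4.36 ± 1.17 (SE; adjusted p = 0.0192, edgeR). It was lost without cortex CD51+ replicate 1 (edgeR adjusted p = 0.0665) or replicate 3 (0.0708) and without cortex CD51- replicate 1 (0.0520), and was -7.23 without cortex CD51+ replicate 2. In hippocampus Fcgr3 was at 1.15, 3.35 and 4.02 CPM in CD51+ and at 84.1, 74.2 and 105 CPM in CD51-, a log2 difference of -4.93 ± 1.21 (SE; adjusted p = 0.0230, edgeR). All 3 hippocampus CD51+ libraries were low, but the call was lost when any of them was left out (adjusted p = 0.101, 0.0804 and 0.0594 for replicates 1, 2 and 3). Fcgr3 belongs to a family of related genes, and whether it shares reads with them was not tested, so its counts are uncertain to that extent.

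Trem2, a lipid-sensing receptor that uses Tyrobp, had the lowest mean level per kilobase of the 10 in the CD51- groups. It was at 0, 11.2 and 0.406 CPM in cortex CD51+ libraries and at 51.7, 19.4 and 16.6 CPM in cortex CD51- libraries. Hippocampus CD51+ libraries had 0, 0 and 20.8 CPM, against 24.4, 36.2 and 116 CPM in hippocampus CD51- libraries. In each region one CD51+ library held nearly all CD51+ reads of Trem2: 87 of 89 in cortex and 124 of 124 in hippocampus. A count of 0 allows up to 3 reads, which is 0.504 CPM in cortex CD51+ replicate 1, 0.688 CPM in hippocampus CD51+ replicate 1 and 0.402 CPM in replicate 2. On the log2 scale CD51+ over CD51- was -2.91 ± 1.90 (SE; adjusted p = 0.308, edgeR) in cortex and -3.08 ± 1.91 (SE; adjusted p = 0.428, edgeR) in hippocampus. Neither passed, although the groups did not overlap. Without hippocampus CD51+ replicate 3, the other CD51+ libraries of hippocampus held no read and the edgeR adjusted p there was 0.0386. Limma-voom also called Trem2 in hippocampus, and no alternative called it in cortex.

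Ly86 encodes MD-1, which pairs with the receptor CD180 on the cell surface. It was at 4.20, 3.72 and 1.42 CPM in cortex CD51+ libraries and at 397, 357 and 181 CPM in cortex CD51- libraries. All cortex CD51+ libraries were uniformly low. The fitted log2 difference was -6.63 ± 1.11 (SE; adjusted p = 0.00052, edgeR), and Ly86 was called in cortex under all 22 alternatives. In hippocampus it stood at 0.459, 10.2 and 24.0 CPM in CD51+ and at 100, 229 and 163 CPM in CD51-, a log2 difference of -3.82 ± 0.97 (SE; adjusted p = 0.0270, edgeR). That call was lost without hippocampus CD51+ replicate 1 (edgeR adjusted p = 0.0817) or replicate 2 (0.113) and without hippocampus CD51- replicate 2 (0.0765).

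Cd53, a tetraspanin of leukocytes, was at 26.5, 56.4 and 4.06 CPM in cortex CD51+ libraries and at 453, 376 and 371 CPM in cortex CD51- libraries. The groups did not overlap, but the log2 fold change of -3.78 ± 1.24 (SE) fell just short, with an edgeR adjusted p of 0.0501. In hippocampus Cd53 was at 0.918, 0.134 and 63.8 CPM in CD51+ and at 277, 333 and 452 CPM in CD51-. A pair of CD51+ libraries had 4 reads and 1 read, and replicate 3 had 381. This was a log2 difference of -4.03 ± 1.26 (SE; adjusted p = 0.0830, edgeR), and -9.49 without replicate 3 (adjusted p = 0.000107).

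Aif1 encodes IBA1, the calcium- and actin-binding protein used in histology to stain microglia. In cortex it had no read in any CD51+ library, while the CD51- libraries had 27, 252 and 1 reads (2.28, 30.2 and 0.146 CPM). Against the limit of 3 reads over the CD51+ group, Aif1 was at least 64.4-fold lower in CD51+, and at least 9.32-fold lower without cortex CD51- replicate 2. The edgeR adjusted p was 0.0579. Aif1 passed in cortex under 7 of 21 alternatives, DESeq2, no filter and a robust fit among them. It did not pass with limma-voom (adjusted p = 0.106). Hippocampus CD51+ libraries had 0, 0 and 7.04 CPM, against 12.6, 22.3 and 36.9 CPM in hippocampus CD51- libraries, a log2 difference of -3.34 ± 2.30 (SE; adjusted p = 0.497, edgeR). Replicate 3 held all 42 CD51+ reads there. In hippocampus Aif1 passed under 1 of 22 alternatives, limma-voom (adjusted p = 0.0474).

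**Figure D3:**
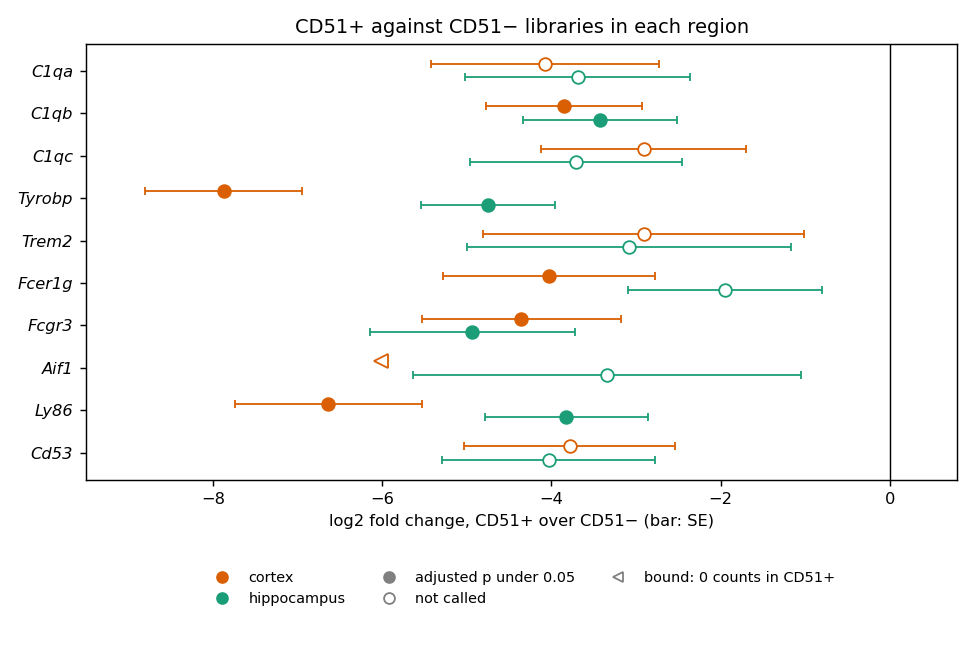
Log2 fold change of CD51+ over CD51- libraries (horizontal axis) for each of the 10 genes in cortex and hippocampus, with SE bars. Filled points passed an edgeR adjusted p of 0.05, and the triangle is the bound for Aif1 in cortex, which had 0 counts in CD51+. All values lie below 0, from -7.87 for Tyrobp in cortex to -1.94 for Fcer1g in hippocampus.

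With both regions averaged in the same fit, 9 of the 10 genes were lower in CD51+, all but Trem2, where 13.9% of all tested genes were called lower. Tyrobp had the largest fitted difference of the members with reads in every group, at -6.31 ± 0.61 (SE; adjusted p = 3.63e-07, edgeR). Ly86 followed at -5.23 ± 0.73 (SE; adjusted p = 2.54e-05, edgeR). Fcgr3 was at -4.64, Cd53 at -3.91, C1qa at -3.88, C1qb at -3.64, C1qc at -3.31 and Fcer1g at -2.98 log2 units, with edgeR adjusted p from 0.000364 to 0.0146. For Aif1 the edgeR adjusted p was 0.0230, and 0.0612 without cortex CD51- replicate 2. Trem2 had a log2 difference of -2.996 ± 1.35 (SE; adjusted p = 0.113, edgeR). It passed without cortex CD51+ replicate 2 (edgeR adjusted p = 0.0256) or hippocampus CD51+ replicate 3 (0.00491). On all 12 libraries it passed with DESeq2, with limma-voom and with no filter. In all it passed under 5 of 21 alternatives.

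The residual reads of the 10 genes in CD51+ libraries were unevenly divided. Summed over the 10 genes, CD51+ libraries held 81 to 2440 reads and CD51- libraries 14634 to 29819. The leading gene of the sum differed between CD51+ libraries. It was C1qc in cortex replicate 1 (54.7% of the reads, Clopper-Pearson 95% interval 51.2% to 58.1%). It was C1qb in cortex replicate 2 (34.8%, 32.7% to 37.0%) and replicate 3 (35.6%, 27.5% to 44.2%). In hippocampus it was Tyrobp in replicate 1 (48.1%, 36.9% to 59.5%) and Fcer1g in replicates 2 (28.7%, 24.5% to 33.2%) and 3 (37.7%, 35.7% to 39.6%). In CD51- libraries the leading gene was C1qb, Cd53 or C1qc and held 19.9% to 27.0%. These are shares of reads, not corrected for gene length, which ran from 667 bases for Tyrobp to 4946 for Trem2. The SD of log2(CPM + 1) between libraries had a median over the 10 genes of 1.86 in cortex CD51+ and 0.585 in cortex CD51-, beside medians over all tested genes of 1.08 and 1.22. In hippocampus it was 2.08 in CD51+ and 0.569 in CD51-, beside 1.02 and 1.07. More variable than the median tested gene were 7 of the 10 in cortex CD51+ and 8 in hippocampus CD51+, and 2 in each CD51- group. The exceptions in cortex CD51+ were Tyrobp and Ly86, and Aif1 with no read. The tested genes were not matched in level to the 10, which had far fewer reads in CD51+ libraries. The part of level in this spread was not tested.

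Levels per kilobase of exon were used to order the genes. In cortex CD51- libraries the mean order, in CPM per kilobase, was Tyrobp 577.9, C1qb 561, Fcer1g 268, Cd53 230, C1qa 179, C1qc 106, Ly86 85.9, Fcgr3 79.9, Aif1 7.10 and Trem2 5.91. Neighbours in this order were separate in all libraries only between C1qb and Fcer1g and between Fcgr3 and Aif1. In hippocampus CD51- libraries it was Tyrobp 363, C1qb 256, Fcer1g 254, Cd53 203, C1qc 109, C1qa 100.4, Fcgr3 50.6, Ly86 45.2, Aif1 15.6 and Trem2 11.9. Only C1qa against Fcgr3 and Ly86 against Aif1 did not overlap there. In the CD51+ groups every pair of neighbours overlapped. The mean level of C1qb led in cortex CD51+ (38.9 CPM per kilobase) and that of Fcer1g in hippocampus CD51+ (66.0), while Tyrobp was at 2.44 in cortex CD51+ and at 13.5 in hippocampus CD51+.

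The second comparison set hippocampus against cortex within each class. None of the 10 genes was called by edgeR. In CD51+ libraries 3 genes had an unadjusted p under 0.05 (Tyrobp, Aif1 and Ly86), as did 11.8% of all tested genes. DESeq2 called 1 and limma-voom 0, and 0.0396% of all tested genes were called by edgeR. DESeq2 gave no adjusted p for Fcer1g and Fcgr3 in any contrast, so its counts leave them out. Tyrobp was at 8.95, 3.49 and 14.6 CPM in hippocampus CD51+ and at 0.672, 2.18 and 2.03 CPM in cortex CD51+, a log2 difference of 2.45 ± 0.74 (SE; adjusted p = 0.304, edgeR, DESeq2 adjusted p = 0.0497). It was the only one of the 10 whose hippocampus CD51+ libraries were all above the cortex ones, as were 7.54% of all tested genes. Ly86 had a difference of 1.88 ± 0.91 (SE; adjusted p = 0.422, edgeR). In CD51- libraries edgeR and limma-voom each called 0 of the 10, and DESeq2 called 0 of those with an adjusted p. None of the 10 had an unadjusted edgeR p under 0.05 against 13.2% of all tested genes, and 0% of all tested genes were called by edgeR. C1qb and Tyrobp were below in all hippocampus CD51- libraries, as were 4.25% of all tested genes, with differences of -1.13 ± 0.83 (SE; adjusted p = 0.669, edgeR) and -0.67 ± 0.68 (SE; adjusted p = 0.806, edgeR).

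Whether the CD51 difference itself differed between regions was tested by the interaction. EdgeR and limma-voom each called 0 of the 10, and 0% of all tested genes were called by edgeR. DESeq2 also called 0 but gave no adjusted p for Fcer1g and Fcgr3. At an unadjusted edgeR p under 0.05 there were 2 of the 10, beside 12.6% of all tested genes. Tyrobp had an interaction of 3.13 ± 1.001 log2 units (SE; adjusted p = 0.200, edgeR) and Ly86 of 2.81 ± 1.25 (SE; adjusted p = 0.355, edgeR), the difference being larger in cortex for both. No region difference in the CD51 effect was detected for any of the 10.

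Between the classes, markers of microglia moved with the 10 genes. Of 13 microglia markers that are not among the 10, 11 were lower in CD51+ cortex and 5 in CD51+ hippocampus, and their median log2 fold change was -4.64 in cortex and -3.22 in hippocampus. Their summed level was 225 to 1932 CPM in CD51+ libraries and 6004 to 13174 CPM in CD51- libraries, and none of the 13 was at 0 over a group. The largest was Csf1r, the receptor that microglia need to survive, at 144 ± 73.6 CPM in cortex CD51+ and 3395 ± 961 CPM in cortex CD51- (SD, n = 3 each). P2ry12, a purine receptor of microglia, was at 142 ± 74.1 CPM in cortex CD51+ and 2359 ± 415 CPM in cortex CD51- (SD, n = 3 each). Per 100 CPM of these markers the 10 genes together had 4.81 to 42.4 CPM in CD51+ libraries and 19.8 to 26.4 CPM in CD51- libraries. The libraries with the highest marker sums among CD51+, hippocampus replicate 3 (1932 CPM) and cortex replicate 2 (1101 CPM), were also those with the highest sums of the 10 genes (409 and 250.5 CPM). Other CD51+ libraries went the other way. Cortex replicate 3 had 569 CPM of the markers and 27.4 CPM of the 10 genes, and cortex replicate 1 had 330 and 139.7 CPM. The part of microglia in the result was not tested.

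**Figure D4:**
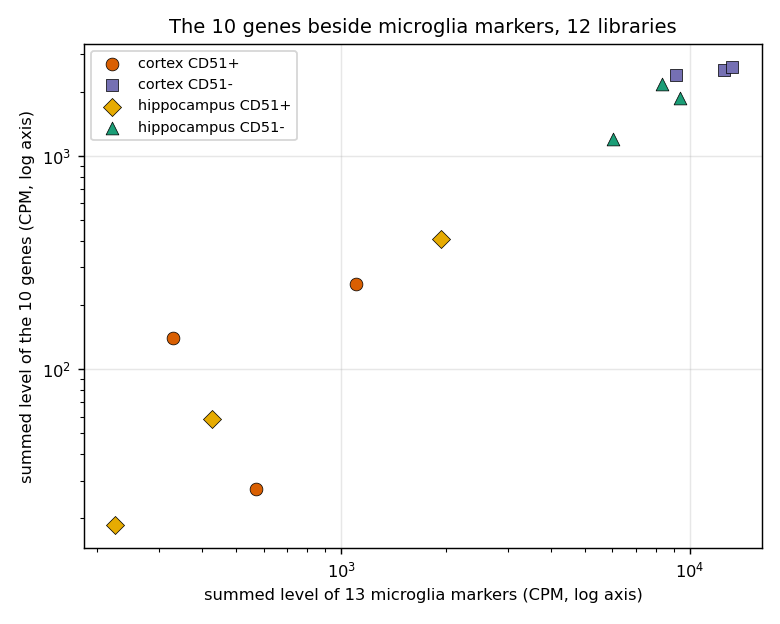
Summed level of the 10 genes (vertical axis, CPM, log scale) beside the summed level of 13 microglia markers (horizontal axis, CPM, log scale) in each of the 12 libraries. CD51+ libraries lie at 18.6 to 409 CPM of the 10 genes and CD51- libraries at 1202 to 2613 CPM.

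Border macrophages of the meninges and vessels also express C1q and Fc receptor genes. Of 7 border macrophage markers, 6 were lower in CD51+ cortex and 4 in CD51+ hippocampus. Their summed level was 0 to 18.4 CPM in CD51+ libraries and 145 to 437 CPM in CD51- libraries. Cd163 and Lyve1 had no read in either CD51+ group, Cbr2 none in cortex CD51+ and F13a1 none in hippocampus CD51+. Mrc1, the mannose receptor, was at 7.77 ± 9.20 CPM in hippocampus CD51+ and 202 ± 34.6 CPM in hippocampus CD51- (SD, n = 3 each; log2 fold change -4.71 ± 1.07, SE; adjusted p = 0.0138, edgeR). Markers of other leukocytes summed to at most 0.336 CPM in CD51+ libraries and 6.49 CPM in CD51- libraries, and none of the 9 passed the filter on low counts. The part of macrophages in the result was not tested.

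Other genes of the same pathways were read from fixed lists. Of 37 further complement genes 18 were tested. In cortex 4 were lower in CD51+ (C3ar1, Itgam and C5ar1 among them) and 2 higher (Clu and Megf10), and in hippocampus 1 was lower (C3ar1) and none higher. Itgam is also on the microglia marker list. The median log2 fold change of the 18 was -0.79 in cortex and -0.87 in hippocampus. C3ar1, the receptor of the C3a fragment, was at 3.51 ± 1.55 CPM in cortex CD51+ and 419 ± 83.8 CPM in cortex CD51- (SD, n = 3 each; log2 fold change -6.89 ± 1.23, SE; adjusted p = 0.000954, edgeR). In hippocampus its log2 fold change was -5.03 ± 1.12 (SE; adjusted p = 0.0119, edgeR).

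Clu and Megf10 went the other way. Clu, clusterin, an inhibitor of the terminal complex that astrocytes express, was at 2703 ± 663 CPM in cortex CD51+ and 286 ± 301 CPM in cortex CD51- (SD, n = 3 each; log2 fold change 3.24 ± 0.64, SE; adjusted p = 0.00217, edgeR). Megf10, an engulfment receptor of astrocytes reported to bind C1q, was at 210 ± 90.3 CPM in cortex CD51+ and 12.9 ± 5.66 CPM in cortex CD51- (SD, n = 3 each; log2 fold change 4.02 ± 0.92, SE; adjusted p = 0.00644, edgeR). In hippocampus Clu had a log2 difference of 2.00 ± 0.61 (SE; adjusted p = 0.0758, edgeR) and Megf10 of 2.14 ± 0.85 (SE; adjusted p = 0.161, edgeR). Lrp1, a scavenger receptor for C1q-coated material, and Calr, calreticulin, did not pass in either region (edgeR adjusted p from 0.111 to 0.746).

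Of the partners with which C1q starts the cascade, C1s1, C1ra and C3 had few or no reads, and C4b was detected in every group. These genes were chosen after their values were seen. C1s1, a protease of the C1 complex, had no read in any library. C1ra, the other protease, had 50 reads in hippocampus CD51+, 2 in cortex CD51- and none in the other 2 groups. C3, the central component, had 9 reads in hippocampus CD51+, 11 in hippocampus CD51-, 1 in cortex CD51- and none in cortex CD51+. C4b, the source of the C4 substrate of the C1 complex, was at 12.1 ± 13.3 CPM in cortex CD51+ and 12.4 ± 6.10 CPM in cortex CD51- (SD, n = 3 each; edgeR adjusted p = 0.99997). In hippocampus C4b was at 24.8 ± 28.5 CPM in CD51+ and 15.8 ± 8.78 CPM in CD51- (SD, n = 3 each; edgeR adjusted p = 0.887).

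Of 12 further Fc receptor genes 5 were tested. In cortex 2 were lower in CD51+ (Fcrls and Fcgr1), in hippocampus 1 (Fcrls), and none was higher. Fcrls, a scavenger-like member of the family known as a microglial gene of the mouse, was at 4.77 ± 2.20 CPM in cortex CD51+ and 649 ± 142 CPM in cortex CD51- (SD, n = 3 each; log2 fold change -7.08 ± 1.16, SE; adjusted p = 0.000477, edgeR). In hippocampus its log2 fold change was -3.63 ± 0.99 (SE; adjusted p = 0.0420, edgeR). Fcgr1, the high-affinity receptor for immunoglobulin G, had 2 reads in cortex CD51+ and 966 in cortex CD51-, a ratio of levels of 334 with a 95% counting interval of 92.1 to 2758 (edgeR adjusted p = 0.0308). Fcgr2b, the inhibitory receptor, was at 2.74 ± 4.48 CPM in cortex CD51+ and 61.9 ± 18.6 CPM in cortex CD51- (SD, n = 3 each; edgeR adjusted p = 0.0759). Fcgrt, the neonatal Fc receptor, was at 14.4 ± 8.98 CPM in cortex CD51+ and 19.6 ± 24.7 CPM in cortex CD51- (SD, n = 3 each; edgeR adjusted p = 0.897). The median log2 fold change of the 5 was -7.08 in cortex, or -6.18 with the gene at 0 counts placed at its bound, and -3.63 in hippocampus.

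Receptors known to signal through Tyrobp or Fcer1g, or to oppose them, made a list of 28, of which 13 were tested. In cortex 5 were lower in CD51+, in hippocampus 1, and none was higher. Cd33, a sialic acid receptor, was lower in both regions, at 13.2 ± 14.7 CPM in cortex CD51+ and 634 ± 144 CPM in cortex CD51- (SD, n = 3 each; log2 fold change -5.58 ± 1.08, SE; adjusted p = 0.00181, edgeR). Siglech, a Tyrobp-coupled receptor that is also on the microglia marker list, was at 23.6 ± 24.9 CPM in cortex CD51+ and 878 ± 177 CPM in cortex CD51- (SD, n = 3 each; edgeR adjusted p = 0.00361). Sirpa, a receptor for CD47 that is expressed widely, was at 300 ± 66.1 CPM in cortex CD51+ and 669 ± 292 CPM in cortex CD51- (SD, n = 3 each; edgeR adjusted p = 0.151). The median log2 fold change of the 13 was -6.20 in cortex and -4.47 in hippocampus, or -5.22 and -3.42 with genes at 0 counts placed at their bounds. Of the 13, 6 were placed at a bound in cortex and 5 in hippocampus.

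Downstream of the ITAM adaptors, 27 of 30 signalling genes were tested. In cortex 14 were lower in CD51+, in hippocampus 5, and none was higher. Lcp2, the scaffold SLP-76, was at 6.88 ± 8.66 CPM in cortex CD51+ and 355 ± 158 CPM in cortex CD51- (SD, n = 3 each; log2 fold change -5.70 ± 1.22, SE; adjusted p = 0.00412, edgeR). Fyb, an adaptor that binds it, was lower in both regions, with log2 fold changes of -6.49 ± 1.33 (SE; adjusted p = 0.00274, edgeR) in cortex and -7.53 ± 1.41 (SE; adjusted p = 0.00259, edgeR) in hippocampus. Blnk, a linker phosphorylated by Syk, had 3 reads in cortex CD51+ and 3950 in cortex CD51-, a ratio of levels of 909 with a 95% counting interval of 311 to 4411 (edgeR adjusted p = 0.000172). Inpp5d, the phosphatase SHIP1, was at 10.8 ± 15.4 CPM in cortex CD51+ and 246 ± 169 CPM in cortex CD51- (SD, n = 3 each; edgeR adjusted p = 0.0211). Lyn, a kinase that phosphorylates ITAMs, was at 43.9 ± 10.5 CPM in cortex CD51+ and 150 ± 79.7 CPM in cortex CD51- (SD, n = 3 each; edgeR adjusted p = 0.179). The median log2 fold change was -6.49 in cortex and -3.77 in hippocampus, and -5.90 in cortex with genes at 0 counts placed at their bounds. Of the 27, 5 were placed at a bound in cortex and 6 in hippocampus.

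MD-1 partners and Toll-like receptor genes, 15 in all and all tested, had 6 lower in CD51+ cortex and 4 in CD51+ hippocampus, and none higher. Cd180, the partner of the Ly86 product, was at 12.7 ± 5.81 CPM in cortex CD51+ and 403 ± 196 CPM in cortex CD51- (SD, n = 3 each; log2 fold change -4.99 ± 0.92, SE; adjusted p = 0.00128, edgeR). The hippocampus levels were 1.33 ± 1.75 CPM in CD51+ and 247 ± 109 CPM in CD51- (SD, n = 3 each; log2 fold change -7.51 ± 1.05, SE; adjusted p = 0.000204, edgeR). Tlr7, a sensor of RNA, was at 18.1 ± 27.8 CPM in cortex CD51+ and 589 ± 9.88 CPM in cortex CD51- (SD, n = 3 each; edgeR adjusted p = 0.00293). Tlr3, a sensor of double-stranded RNA, had a positive log2 fold change of 2.50 ± 0.83 (SE) in cortex that did not pass (edgeR adjusted p = 0.0527). The median of the 15 was -5.02 in cortex and -5.39 in hippocampus, or -4.99 and -4.65 with genes at 0 counts placed at their bounds.

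Of 20 tetraspanin genes other than Cd53, 19 were tested. In cortex 3 were lower in CD51+ (Tspan2, Cd9 and Cd37) and 1 higher (Tspan7), and in hippocampus Tspan7 was higher and none was lower. Their median log2 fold change was 1.16 in cortex and 0.84 in hippocampus. Tspan7 was at 673 ± 175 CPM in cortex CD51+ and 70.1 ± 45.5 CPM in cortex CD51- (SD, n = 3 each; log2 fold change 3.26 ± 0.64, SE; adjusted p = 0.00186, edgeR). Cd9 was at 4.17 ± 3.83 CPM in cortex CD51+ and 86.9 ± 29.5 CPM in cortex CD51- (SD, n = 3 each; edgeR adjusted p = 0.0259). Tspan2, expressed by oligodendrocytes, was at 28.6 ± 5.31 CPM in cortex CD51+ and 251 ± 171 CPM in cortex CD51- (SD, n = 3 each; edgeR adjusted p = 0.0191). Cd81, the tetraspanin with the highest mean level, did not pass in either region (edgeR adjusted p = 0.116 in cortex and 0.319 in hippocampus).

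Genes of the microglial state that depends on Trem2 in mouse disease models were also read: 16 of 19 were tested. In cortex 5 were lower in CD51+ (B2m, Fth1, Ctsd, Csf1 and Cd9) and 2 higher (Apoe and Axl), and in hippocampus none passed. Cd9 is also on the tetraspanin list. The median log2 fold change of the 16 was -2.03 in cortex, or -1.62 with the gene at 0 counts placed at its bound. In hippocampus it was -1.10, or -0.94 with such a gene at its bound. Apoe, the main lipid carrier of the brain and an astrocyte product, was at 3077 ± 375 CPM in cortex CD51+ and 406 ± 248 CPM in cortex CD51- (SD, n = 3 each; log2 fold change 2.92 ± 0.52, SE; adjusted p = 0.000969, edgeR). B2m, the light chain of class I antigen-presenting molecules, was at 260 ± 145 CPM in cortex CD51+ and 1391 ± 368 CPM in cortex CD51- (SD, n = 3 each; edgeR adjusted p = 0.00956).

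Of 13 genes for actin regulation beside Aif1, all tested, 4 were lower and 1 higher in CD51+ cortex and 3 were lower in CD51+ hippocampus. Actb, cytoplasmic actin, was lower in cortex at 560 ± 217 CPM in CD51+ and 1776 ± 493 CPM in CD51- (SD, n = 3 each; log2 fold change -1.66 ± 0.50, SE; adjusted p = 0.0337, edgeR). Rac1 and Cfl1, a GTPase and an actin-severing protein present in most cells, did not pass in cortex (edgeR adjusted p = 0.317 and 0.711). The median log2 fold change was -2.81 in cortex and -2.37 in hippocampus.

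For 3 profiles the genes most like them were found over the 12 libraries, by the root mean square difference of log2 CPM after centring each gene on its mean. This is a description, and the 12 libraries share the class difference. Most like the mean of the C1q chains were Csf1r (0.57 log2 units), Maf (0.70), Btg1 (0.73), Nr4a1 (0.80) and Man2b1 (0.84), where the median tested gene was at 3.12. Most like Tyrobp were Ucp2 (0.62), Skap2 (0.88), Ankrd44 (0.89), Csmd3 (0.89) and Ctss (0.94), with a median of 3.72. Among the 5 most like Cd53 were H2-D1 (0.74), Pde3b (1.02), Lair1 (1.09) and Rnase4 (1.27), with a median of 3.87. Of the 10 genes themselves, Ly86 came closest to the C1q mean after C1qb, at 0.91 and place 12 among all tested genes. C1qa was in place 50 and C1qc in place 120, although both are part of that mean.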

How the data were processed

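Per the labels' protocols, sorted cells gave column-purified RNA for low-input, paired-end sequencing. The deposited values are raw counts per gene: per the file headers, featureCounts 2.0.4 counted primary read pairs over exons of GENCODE vM25, unstranded. STAR, mm10 and DESeq2 1.40.2 are named in the submitters' processing notes. Gene lengths also came from the deposited table. Symbols were matched for 55141 of 55401 IDs, and the promoters are from RefSeq.

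All 12 libraries were fitted together with edgeR 4.0.16 (R 4.3.3): TMM factors, filterByExpr (minimum count 10, minimum total 15), the quasi-likelihood F test on 6 contrasts, and Benjamini-Hochberg adjustment over 12613 genes at 0.05. An SE was obtained as the size of the log2 fold change over the root of its F statistic. The common dispersion was 1.64. CPM used TMM-scaled library sizes. A gene with 0 counts in a group was set against a limit of 3 counts over that group, and ratios with 1 to 3 counts have 95% counting intervals. Total counts were 4351897 to 12847183 per library, and intervals cover counting error only. Alternatives were DESeq2 1.42.0, limma-voom (limma 3.58.1), RLE and upper-quartile factors, mitochondrial genes left out, no filter, a filter of 1 CPM in 3 libraries, a robust fit, a replicate block, only the libraries compared, and each library left out. Likeness used log2 CPM with a prior count of 2. The fit was also tested on simulated counts. Plots were made in matplotlib 3.10.9 (Python 3.11.15).

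The 10 genes and the lists were chosen with earlier results of these data known. The text names all 10, the 6 genes of highest mean CPM in each pathway list and 3 in each other list, and complement, Fc receptor and ITAM genes called opposite to C1qa in cortex, and leaves some of these out. Some genes are not reported here. Genes named with counts of 5 or fewer were chosen after their values were seen.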

Additional observations from a re-analysis of the deposited data

How the results depend on the processing

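Between CD51+ and CD51- libraries, no fold change of the 10 genes changed sign under the alternatives tried in cortex, in hippocampus or in the average. In cortex 5 of the 10 were called, 8 by limma-voom, 9 with no filter and 3 to 8 with 1 library left out. The 3 remaining calls came without cortex CD51+ replicate 3, and 8 came without any one of the hippocampus CD51+ libraries. In hippocampus 4 were called, 7 by limma-voom, 7 with no filter and 1 to 6 with 1 library left out, with 1 without hippocampus CD51+ replicate 1 or 2 and 2 without hippocampus CD51- replicate 2. Between regions in CD51+ libraries, 1 gene was called by DESeq2 and 0 to 1 with 1 library left out (Cd53, without hippocampus CD51+ replicate 3). The average kept between 8 and 10 calls. DESeq2 gave no adjusted p for Fcer1g and Fcgr3. Neither could therefore be among its calls, and for each gene alone DESeq2 is not counted as a lost call. In cortex Cd53 passed under 16 and C1qa under 15 of 22 alternatives. The cause of these changes was not tested.

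Over all tested genes, 1428 were called in cortex (3219 by DESeq2, 2164 by limma-voom, 1609 with no filter, 879 to 1507 with 1 library left out). In hippocampus 418 were called (1457 by DESeq2, 885 by limma-voom, 636 with no filter, 198 to 559 with 1 library left out). Same-numbered replicates did not deviate together: 0 of 18 pairs had a correlation over 0.1 (-0.048 to 0.027), and 7 of the 18 were best with their own number. With a replicate block 6 of the 10 genes were called in cortex, 5 in hippocampus and 9 in the average, and 0 between regions or for the interaction. Over all tested genes, that block gave 1260 calls in cortex and 435 in hippocampus. The 10 genes together had as few as 81 reads in a CD51+ library, which limits the shares given for it.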
